A study of Mus musculus with 9 samples.

Results

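The genes described here encode the mouse translation initiation factors (eIFs) and elongation factors (eEFs), the soluble proteins that load the ribosome onto mRNA and move it along. They were taken from the gene-level RNA-seq table by symbol: 78 of its 53715 rows begin with Eif or Eef and a digit. Leaving out 9 pseudogenes, 4 eIF2 kinases, the sex-linked pair Eif2s3x and Eif2s3y and 1 noncoding RNA left 62 protein-coding genes. Of these, 60 passed the filter on low counts, while Eif4e1b had 0 counts in all 5 libraries and Eef1a2 had 1 count in total.

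The study asked what the splicing factor SRSF1 does in late thymocyte maturation. SRSF1KO libraries (2) came from mice of the genotype Srsf1fl/flLckcre/+, in which Cre made under the control of Lck, a kinase gene of the T cell lineage, deletes floxed Srsf1. WT libraries (3) came from mice labelled WT, and the labels do not say whether these carried the floxed allele or Cre. All were C57BL/6 mice of 6 to 8 weeks, and in both groups TCRβ+CD69+CD24+CD4+CD8+ thymocytes were sorted before Smart-seq2 libraries were made. Another 4 CLIP-seq samples were not analysed here. The labels do not tie replicates to separate animals, so a p-value here measures the spread among libraries, in which animal and technical differences cannot be told apart.

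The libraries held 36026006 to 36062595 gene counts in SRSF1KO and 36487359 to 38985285 in WT. Srsf1 itself stood at 42.6 and 30.9 CPM (a gene's count relative to its library's scaled total) in SRSF1KO replicates 1 and 2, against 96.9, 122.7 and 103.1 CPM in WT replicates 1, 2 and 3. Its log2 fold change was −1.55 ± 0.19 (SE; edgeR adjusted p = 0.0483), and the counts cover the whole gene, deleted exons or not. With any 1 library left out it stayed between −1.80 and −1.32, with an adjusted p of 0.0509 to 0.220, and the adjusted p was 0.0515 with DESeq2's size factors in edgeR. Of 8 gate and T cell genes edgeR called 0. Cd4 stood apart, at 1229 and 1118 CPM in SRSF1KO against 881, 767 and 932 CPM in WT (log2 fold change 0.45 ± 0.11, SE; edgeR adjusted p = 0.136), and the groups overlapped for the other 7, Cd8a among them. SRSF1KO replicate 1 and WT replicate 2 had the male pattern of sex-linked transcripts (5699 and 5803 Ddx3y counts, against 23 to 141 in the other 3), so each group held libraries from more than 1 animal. Xist, the female-pattern transcript, had 282 counts in SRSF1KO replicate 1, 1369 in WT replicate 2 and 14784 to 21400 in the other 3. It was thus higher in WT replicate 2 than in the other library of the male pattern. Marker lists of 7 other cell types (27 genes, none at 0 in all libraries) summed to 434 and 365 CPM in SRSF1KO and 295 to 356 CPM in WT. The 4 erythroid markers stood apart in SRSF1KO replicate 1, at 89.7 CPM, against 19.7 CPM in SRSF1KO replicate 2 and 2.34 to 11.8 CPM in WT. Of the 4 stromal markers Pecam1 made up nearly all of the sum, at 178 and 201 CPM in SRSF1KO and 151 to 193 CPM in WT. Col3a1, a defining gene of fibroblasts, had 0 counts in all libraries but WT replicate 2, which had 6. The stromal sum thus rested on 1 gene and does not measure stromal cells.

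Translation starts when the cap-binding complex eIF4F, made of the cap-binding protein eIF4E, the scaffold eIF4G and the RNA helicase eIF4A, recruits a small ribosomal subunit to an mRNA. That subunit carries eIF1, eIF1A, eIF3 and eIF5, with the initiator tRNA delivered by eIF2 in its GTP-bound form. In elongation eEF1A brings each charged tRNA to the ribosome, the eEF1B complex recharges eEF1A with GTP, and eEF2 moves the ribosome on by a codon. T cells raise protein synthesis when they are activated, and SRSF1 has been linked, in cultured human cells, to translation initiation through the eIF4E-binding proteins.

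One translation factor gene passed the test. Eef1g, which encodes the gamma subunit of the eEF1B exchange complex, fell by 46.1% in SRSF1KO thymocytes. The other subunit genes of that complex, Eef1b2 and Eef1d, together with Eif5a, Eif2d, Eif2b3 and Eif3i, lay below every WT library but did not pass over all genes tested. In bulk libraries a change in the RNA of each cell and a change in the share of cells that hold it cannot be told apart.

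Among the 60 genes tested, 1 was called lower and 0 higher by edgeR's quasi-likelihood test at an adjusted p under 0.05. Over all 17351 genes tested the test called 0.213% lower and 0.0519% higher. At an unadjusted p under 0.05, 10 translation factor genes (16.7%) were lower and 2 (3.3%) higher, against 8.45% and 5.9% of all genes tested. The SRSF1KO libraries lay below all WT libraries in 26 of the 60 (43.3%) and above them in 6 (10%), against 17.8% and 15.2% of all genes tested. The log2 fold change lay below 0 in 47 of 60 (78.3%), against 50.6% of all genes. Its median was −0.14, against −0.01 over all genes tested. DESeq2, used as an alternative, called 7 of 59 lower (11.9%) and 0 higher, against 3.56% lower and 2.31% higher among its 17625 genes with an adjusted p. Its 7 calls were Eef1g, Eif2d, Eif3j2, Eif3i, Eif5a, Eef1b2 and Eif2b3. Of the 60 genes, 56 averaged 5 CPM or more. Among all 9932 genes tested at that level, the SRSF1KO libraries lay below all WT libraries in 2057 and above them in 1630. At an unadjusted p under 0.05, 1113 of these 9932 were lower and 807 higher by edgeR. DESeq2 called 495 of them lower and 310 higher.

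Most differences were small: 32 of the 60 genes had an absolute log2 fold change under 0.2, 20 lay between 0.2 and 0.5, and 8 at 0.5 or more. Among these 8 were Eef1akmt3, Eif4ebp3 and Eif3j2, which averaged under 5 CPM. The counts of the 62 translation factor genes together made up 1.58% and 1.66% of all counts in SRSF1KO replicates 1 and 2, against 1.74%, 1.83% and 1.78% in WT replicates 1, 2 and 3. Eef1a1 held 26.3% and 27.2% of their summed CPM in SRSF1KO and 25.8% to 28.9% in WT. The shares of the 2 groups did not overlap for the summed counts and did for Eef1a1. The libraries of SRSF1KO differed in how many genes they placed outside the WT range: replicate 1 lay below all WT libraries for 39 of the 60 and above them for 7, and replicate 2 did so for 29 and 14. Among all genes tested these shares were 31.8% below and 29.7% above for replicate 1, and 31.4% below and 29.8% above for replicate 2.

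**Figure D1:**
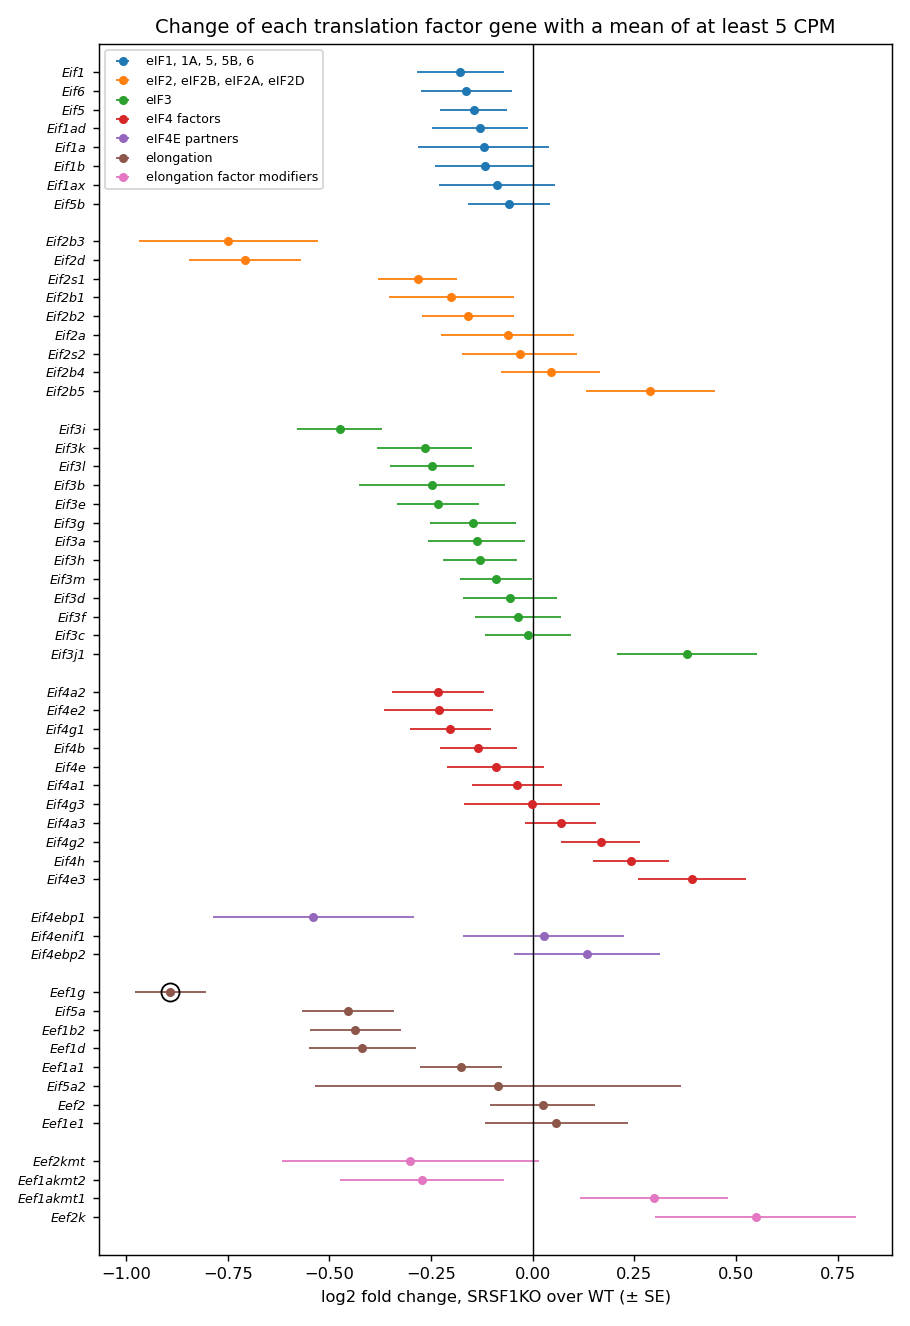
Log2 fold change of SRSF1KO over WT (horizontal axis, bars are ± SE of the edgeR fit with 2 SRSF1KO and 3 WT libraries) for the 56 translation factor genes averaging 5 CPM or more, grouped by role and sorted within each group. The black ring marks Eef1g, the gene with an adjusted p under 0.05, at −0.89, and most other genes lie between −0.5 and 0.

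Of the 9 elongation factor genes 8 were tested and 6 lay below 0, with a median log2 fold change of −0.30. An unadjusted p under 0.05 was reached by 4 of them, all lower (8.45% of all genes were), and 1 was called lower (0.213% of all genes were). Eef1g (ENSMUSG00000071644.10, chromosome 19, 8967041 to 8978180, GRCm38.p6) stood at 266 and 270 CPM in SRSF1KO replicates 1 and 2, against 490, 487 and 517 CPM in WT replicates 1, 2 and 3. The SRSF1KO values lay close together, and every WT library was far above them. The mean was 268 ± 3.04 CPM in SRSF1KO (SD, n = 2) and 498 ± 16.2 CPM in WT (SD, n = 3), and the log2 fold change was −0.89 ± 0.09 (SE; edgeR adjusted p = 0.0299). By unadjusted p, Eef1g was number 7 of the 17351 genes tested. Among libraries of the female pattern of sex-linked transcripts its difference was −0.90, and among those of the male pattern −0.87. Leaving out 1 library kept the log2 fold change between −0.91 and −0.85, while the adjusted p was 0.0351 without SRSF1KO replicate 2, 0.088 without SRSF1KO replicate 1 and 0.211, 0.134 and 0.220 without WT replicates 1, 2 and 3. With the sex pattern as a term the adjusted p was 0.0621. No other RefSeq gene overlaps Eef1g, though the annotation used for the counting may differ.

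Eef1b2 (chromosome 1, 63176831 to 63180486), the catalytic subunit that exchanges GDP for GTP on eEF1A, stood at 239 and 251 CPM in SRSF1KO, against 298, 364 and 331 CPM in WT replicates 1, 2 and 3. The groups did not overlap, with a log2 fold change of −0.44 ± 0.11 (SE; edgeR adjusted p = 0.154). Eef1d, the other exchange subunit, was singled out after its values were seen, at 131 and 103 CPM in SRSF1KO against 148, 165 and 156 CPM in WT. Its groups did not overlap either, with a log2 fold change of −0.42 ± 0.13 (SE; edgeR adjusted p = 0.224), which was −0.60 without SRSF1KO replicate 1 and −0.24 without SRSF1KO replicate 2. Eef1e1, whose product belongs to the complex of tRNA synthetases, stood at 0.06 ± 0.18 (SE) on the log2 scale.

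Eef1a1, the tRNA carrier on which these subunits act, stood at 4138 and 4563 CPM in SRSF1KO, against 4411, 5303 and 5041 CPM in WT replicates 1, 2 and 3. The groups overlapped and the log2 fold change was −0.18 ± 0.10 (SE; edgeR adjusted p = 0.484). Ratios of genes within a library do not depend on how the libraries are scaled. The log2 ratio of Eef1g to Eef1a1 was −3.96 and −4.08 in SRSF1KO against −3.17, −3.45 and −3.29 in WT, a difference of −0.72. For Eef1b2 over Eef1a1 the ratio was −4.12 and −4.19 in SRSF1KO against −3.89, −3.86 and −3.93 in WT, a difference of −0.26. For Eef1d over Eef1a1 it was −4.99 and −5.47 in SRSF1KO against −4.90, −5.01 and −5.01 in WT, and there the groups overlapped. The first 2 ratios gave a two-sided exact permutation p = 0.1, the smallest that the 10 regroupings of these libraries allow, and the last gave p = 0.3. These are 3 of 12 ratios computed, with pairs chosen after the values were seen. None of the ratios left out of the text reached p = 0.1 in this permutation test.

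Eif5a (chromosome 11, 69916712 to 69921958), named for initiation but acting in elongation, where its hypusine residue helps the ribosome past difficult stretches such as runs of proline, stood at 754 and 927 CPM in SRSF1KO. The WT libraries stood at 1233, 1087 and 1137 CPM, all above the SRSF1KO ones. Its log2 fold change was −0.45 ± 0.11 (SE; edgeR adjusted p = 0.149), and it was −0.31 without SRSF1KO replicate 1 and −0.59 without SRSF1KO replicate 2. Gps2 overlaps Eif5a by 345 bases, and the strand setting of the counting is not given in the sources used here. Eef2, the translocase, stood at 1181 and 1087 CPM in SRSF1KO, within the WT range of 951, 1277 and 1117 CPM, with a log2 fold change of 0.02 ± 0.13 (SE; edgeR adjusted p = 0.970) whose sign turned in 3 of 13 alternatives.

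**Figure D2:**
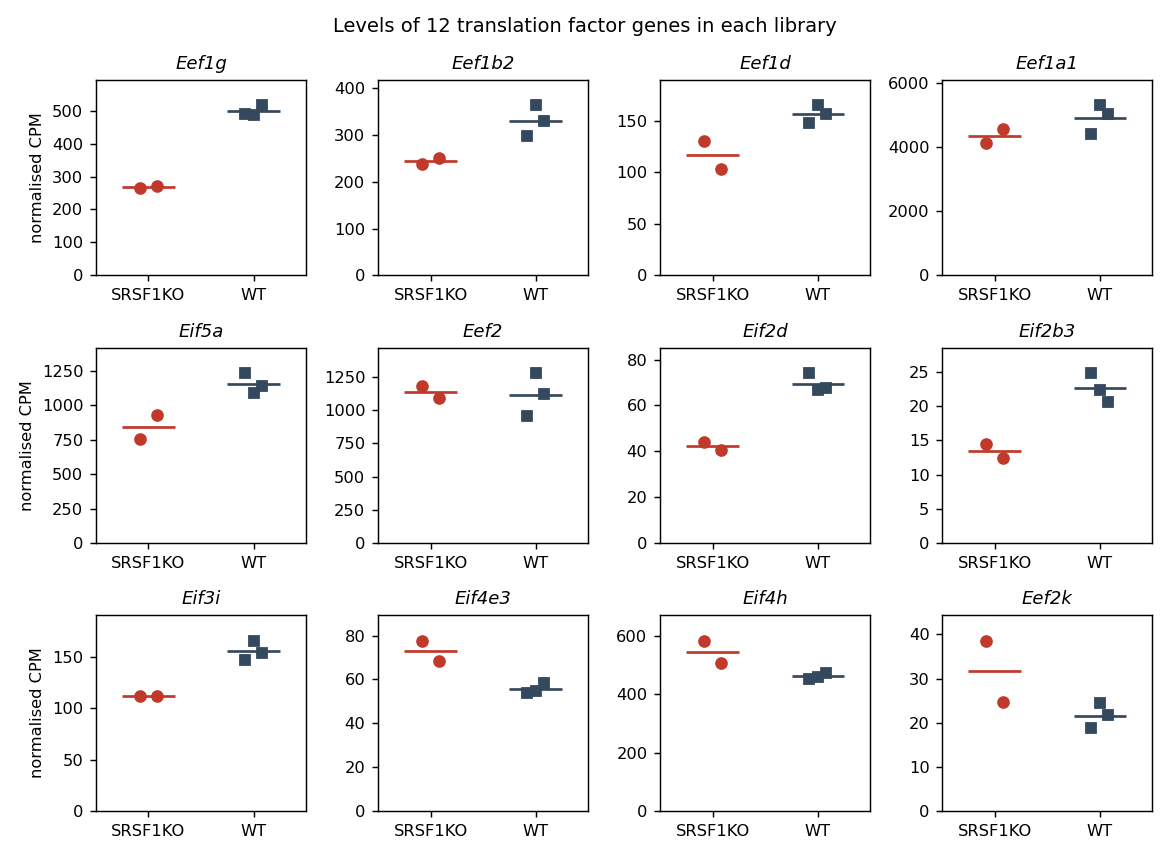
Normalised CPM (vertical axis, starting at 0 and scaled to each gene) of 12 translation factor genes in each SRSF1KO library (red circles, n = 2) and each WT library (dark squares, n = 3), with horizontal lines at the group means. Eef1g separates the groups most clearly, at 266 and 270 CPM in SRSF1KO and 487 to 517 CPM in WT, while the groups overlap for Eef1a1 and Eef2.

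Of the 6 genes for enzymes that modify elongation factors, 4 lay below 0 and 2 above, and none reached an unadjusted p under 0.05. Eef2k, the kinase that inactivates eEF2 by phosphorylation, stood at 38.5 and 24.7 CPM in SRSF1KO against 18.7, 24.4 and 21.7 CPM in WT. Replicate 2 of SRSF1KO lay only just above the highest WT library, and the log2 fold change of 0.55 ± 0.25 (SE; edgeR adjusted p = 0.371) became 0.19 without SRSF1KO replicate 1. Eef1akmt1, a lysine methyltransferase of eEF1A, stood at 44.8 and 41.5 CPM in SRSF1KO against 33.9, 30.4 and 40.9 CPM in WT, and Eef1akmt2, of the same function, at 26.3 and 20.5 CPM in SRSF1KO against 30.4, 27.1 and 27.3 CPM in WT. The SRSF1KO libraries lay above WT for Eef1akmt1 and below it for Eef1akmt2, in both cases by a narrow gap. Neither passed (edgeR adjusted p = 0.524 for Eef1akmt1 and 0.615 for Eef1akmt2). Eef1akmt3 had 0 counts in both SRSF1KO libraries and in WT replicate 3, and 16 counts in each of WT replicates 1 and 2, too few for a fold change.

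Of the 9 genes for eIF2, its exchange factor eIF2B and other carriers of the initiator tRNA, 7 lay below 0 in log2 fold change. Of these 7, 3 had an unadjusted p under 0.05 (8.45% of all genes were lower at that threshold). None of the 9 was called by edgeR. Eif2d (chromosome 1, 131153172 to 131187659), whose product acts in recycling of the small subunit and can place tRNA without eIF2, stood at 44.3 and 40.7 CPM in SRSF1KO, against 74.1, 66.7 and 67.4 CPM in WT replicates 1, 2 and 3. The groups were well apart, with a log2 fold change of −0.71 ± 0.14 (SE; edgeR adjusted p = 0.0991, DESeq2 adjusted p = 0.00145). Rassf5 overlaps Eif2d by 11250 bases and stood at 504 CPM in SRSF1KO and 534 CPM in WT, so reads of the shared stretch cannot be told apart. Eif2b3, the gamma subunit of the GTP exchange factor eIF2B, stood at 14.5 and 12.4 CPM in SRSF1KO against 24.8, 22.3 and 20.5 CPM in WT. Again the groups did not overlap, with a log2 fold change of −0.75 ± 0.22 (SE; edgeR adjusted p = 0.202, DESeq2 adjusted p = 0.0490).

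The other eIF2B subunits did not follow Eif2b3 in size. Eif2b1 stood at −0.20 ± 0.15, Eif2b2 at −0.16 ± 0.11, Eif2b4 at 0.04 ± 0.12 and Eif2b5, the catalytic subunit, at 0.29 ± 0.16 on the log2 scale (SE), and Eif2b4 turned below 0 without SRSF1KO replicate 2. Eif2s1, the alpha subunit of eIF2 whose phosphorylation by stress kinases lowers initiation, stood at 141 and 146 CPM in SRSF1KO against 183, 171 and 170 CPM in WT replicates 1, 2 and 3. Its groups did not overlap, with a log2 fold change of −0.28 ± 0.10 (SE; edgeR adjusted p = 0.261). The beta subunit gene Eif2s2 stood at −0.03 ± 0.14 (SE).

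The 14 eIF3 genes encode the large scaffold on the small subunit. Their median log2 fold change was −0.14, 13 lay below 0 (with Eif3c, at −0.01, changing sign in 9 of 13 alternatives), and edgeR called 0 of them, with 3 lower at an unadjusted p under 0.05 (8.45% of all genes were) and 2 called lower by DESeq2 (3.56% of all genes were). In 8 of the 14 the SRSF1KO libraries lay below all WT libraries, as they did in 17.8% of all genes. Eif3i (chromosome 4, 129591974 to 129600648) stood at 112 and 111 CPM in SRSF1KO against 147, 166 and 153 CPM in WT replicates 1, 2 and 3. The SRSF1KO libraries were nearly equal and the lowest WT library was clearly higher, with a log2 fold change of −0.48 ± 0.10 (SE; edgeR adjusted p = 0.127, DESeq2 adjusted p = 0.0159). Eif3l stood at 173 and 179 CPM in SRSF1KO against 216, 192 and 220 CPM in WT (log2 fold change −0.25 ± 0.10, SE; edgeR adjusted p = 0.336). Eif3e, a subunit that also occurs in other complexes, stood at 211 and 245 CPM in SRSF1KO against 266, 266 and 273 CPM in WT (−0.23 ± 0.10, SE; edgeR adjusted p = 0.354), and was −0.13 without SRSF1KO replicate 1. The smallest changes in the group were those of Eif3c, at −0.01 ± 0.11, and Eif3f, at −0.04 ± 0.11 (SE).

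Eif3j1 and its close copy Eif3j2 pointed in opposite directions, and the counting may split their reads. Eif3j1 encodes the loosely bound eIF3 subunit, and stood at 54.8 and 50.1 CPM in SRSF1KO against 34.9, 39.6 and 46.5 CPM in WT (log2 fold change 0.38 ± 0.17, SE; edgeR adjusted p = 0.375). Eif3j2 stood at 1.39 and 0.951 CPM in SRSF1KO against 7.61, 10.7 and 1.43 CPM in WT replicates 1, 2 and 3. WT replicate 3 thus lay just above the SRSF1KO libraries, and the log2 fold change of −2.49 ± 0.84 (SE) did not pass with edgeR (adjusted p = 0.254) and did with DESeq2 (adjusted p = 0.0159). Both were singled out after their values were seen.

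The eIF4 factors were split in direction: 7 of the 11 tested lay below 0 (Eif4g3 so close to it that its sign changed in most alternatives) and 4 above, with a median log2 fold change of −0.04. EdgeR and DESeq2 called 0 of them, and 2, both higher, reached an unadjusted p under 0.05 (5.9% of all genes were higher at that threshold). Eif4a1, the main RNA helicase of the cap-binding complex, stood at 641 and 765 CPM in SRSF1KO against 727, 667 and 773 CPM in WT. Its closest relative Eif4a2 stood at 338 and 403 CPM in SRSF1KO against 460, 445 and 401 CPM in WT. Both overlapped between groups (edgeR adjusted p = 0.931 for Eif4a1 and 0.404 for Eif4a2), and the log2 ratio of Eif4a1 to Eif4a2 differed by 0.19 (two-sided exact permutation p = 0.4, where 0.1 is the smallest possible). The cap-binding gene Eif4e stood at 147 and 119 CPM in SRSF1KO around WT values of 140, 144 and 142 CPM (edgeR adjusted p = 0.816), and its log2 fold change of −0.09 turned to 0.07 without SRSF1KO replicate 2. The scaffold gene Eif4g1 stood at 213 and 207 CPM in SRSF1KO against 255, 224 and 248 CPM in WT, without overlap (−0.20 ± 0.10, SE; edgeR adjusted p = 0.407).

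Among the 11 eIF4 genes tested, SRSF1KO lay above WT without overlap for 3, Eif4e3, Eif4h and Eif4a3, as it did for 15.2% of all genes. It lay below WT without overlap for 2, Eif4g1 and Eif4b, as for 17.8% of all genes. Of the 3 above, Eif4e3 and Eif4h had an unadjusted p under 0.05. Eif4e3, an atypical cap-binding relative of eIF4E, stood at 77.6 and 68.2 CPM in SRSF1KO against 53.6, 54.6 and 58.4 CPM in WT (log2 fold change 0.39 ± 0.13, SE; edgeR adjusted p = 0.255). Eif4h, a cofactor of the helicase, stood at 584 and 509 CPM in SRSF1KO against 454, 460 and 473 CPM in WT (0.24 ± 0.09, SE; edgeR adjusted p = 0.309). Both were higher in SRSF1KO replicate 1 than in replicate 2, and without replicate 1 Eif4h stood at 0.14 and Eif4e3 at 0.30 on the log2 scale. The log2 ratio of Eif4e to Eif4e3 was 0.93 and 0.81 in SRSF1KO against 1.39, 1.40 and 1.28 in WT, a difference of −0.49 (two-sided exact permutation p = 0.1, the smallest possible).

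The eIF4E-binding proteins hold eIF4E away from eIF4G until the kinase mTOR phosphorylates them. Eif4ebp1 stood at 12.2 and 11.6 CPM in SRSF1KO against 14.2, 18.8 and 18.9 CPM in WT (log2 fold change −0.54 ± 0.25, SE; edgeR adjusted p = 0.376). Eif4ebp2 stood at 83.3 and 99.7 CPM in SRSF1KO against 67.4, 98.9 and 84.0 CPM in WT, with overlap (0.13 ± 0.18, SE; edgeR adjusted p = 0.824). The log2 ratio of Eif4ebp1 to Eif4ebp2 was −2.77 and −3.11 in SRSF1KO against −2.25, −2.40 and −2.16 in WT, a difference of −0.67 (two-sided exact permutation p = 0.1, the smallest possible). This pair too is among the 12 chosen after the values were seen, and the groups already did not overlap for Eif4ebp1 alone. Eif4ebp3 had 2 and 8 counts in SRSF1KO and 11, 9 and 17 counts in WT. Eif4enif1, which carries eIF4E into the nucleus and represses its mRNAs, stood at 0.03 ± 0.20 (SE; edgeR adjusted p = 0.978).

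The 8 genes of scanning, start-site choice and subunit joining all lay slightly below 0, at log2 fold changes between −0.18 and −0.06, and none reached an unadjusted p under 0.05. Eif1, which guards against starting at the wrong codon, stood at 610 and 632 CPM in SRSF1KO against 667, 789 and 653 CPM in WT (−0.18 ± 0.11, SE; edgeR adjusted p = 0.511). Eif5, which triggers GTP hydrolysis on eIF2, stood at 385 and 376 CPM in SRSF1KO against 422, 414 and 426 CPM in WT (−0.15 ± 0.08, SE; edgeR adjusted p = 0.485). Eif6, which keeps the large subunit from joining too early, stood at 125 and 147 CPM in SRSF1KO against 159, 148 and 150 CPM in WT (−0.16 ± 0.11, SE; edgeR adjusted p = 0.578), and was −0.05 without SRSF1KO replicate 1 and −0.27 without SRSF1KO replicate 2. Each of the 8 kept its sign under all 13 alternatives, though Eif1ad and Eif1ax came close to 0 in some. In 4 of the 8, Eif1, Eif5 and Eif6 among them, the SRSF1KO libraries lay below all WT libraries, as they did in 17.8% of all genes. The gap for Eif6 was about 1 CPM.

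Pseudogene rows could draw reads from the parent genes. Only pseudogenes with an Eif or Eef symbol were looked at, and those under other symbols were not. Eif4a-ps4 was the only one of the 9 with many reads, at 467 and 640 counts in SRSF1KO and 841, 655 and 812 counts in WT, and each of the other 8 had at most 20 counts in any library.

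A list of 50 other genes of translation and its control, release factors, poly(A)-binding proteins, mTOR pathway genes and the eIF2 kinases among them, was set beside the factors. Of the 48 tested, edgeR called 0, with 4 lower and 4 higher at an unadjusted p under 0.05 (8.45% and 5.9% of all genes, so the shares were close to the background), DESeq2 called 0, and the median log2 fold change was −0.05. Those with the smallest p were Eif2ak3, Dph1, Ppp1r15b, Etf1 and Mcts2. Eif2ak3, the eIF2 kinase of the endoplasmic reticulum (PERK), stood at 64.2 and 57.0 CPM in SRSF1KO against 34.1, 44.3 and 45.2 CPM in WT (0.56 ± 0.17, SE; edgeR adjusted p = 0.224). Ppp1r15b, which directs a phosphatase to eIF2 and so opposes that kinase, stood at 139 and 141 CPM in SRSF1KO against 96.1, 97.6 and 123 CPM in WT (0.41 ± 0.14, SE; edgeR adjusted p = 0.245). Dph1, of the pathway that makes the diphthamide residue of eEF2, stood at 8.41 and 7.67 CPM in SRSF1KO against 19.2, 11 and 16.6 CPM in WT (−0.96 ± 0.32, SE; edgeR adjusted p = 0.244). The release factor gene Etf1 stood at −0.39 ± 0.14 and Mcts2, a copy of Mcts1 with which it may share reads, at 0.89 ± 0.36 on the log2 scale (SE; edgeR adjusted p = 0.284 for Etf1 and 0.322 for Mcts2).

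The products of Denr and Mcts1 act as a pair in the same recycling step as eIF2D. Singled out after their values were seen, Denr stood at 67.2 and 69.5 CPM in SRSF1KO against 85.2, 83.7 and 80.3 CPM in WT, and Mcts1 at 47.6 and 48.4 CPM in SRSF1KO against 54.1, 67.5 and 60.3 CPM in WT. Their log2 fold changes were −0.28 ± 0.12 and −0.34 ± 0.15 (SE; edgeR adjusted p = 0.330 for Denr and 0.367 for Mcts1), so that both and Eif2d lay below WT in each SRSF1KO library, and none of them passed.

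The translation factors were also set beside the genes for the proteins of the cytosolic ribosome, on which they act. Of 76 such genes 74 lay below 0, and edgeR called 5 lower (0.213% of all genes) and DESeq2 35 (3.56% of all genes). At an unadjusted p under 0.05, 65 were lower (8.45% of all genes). Their median log2 fold change was −0.41, against −0.14 for the translation factors. Their quartiles were −0.50 and −0.30, and those of the translation factors −0.27 and −0.03. This is a description and the difference was not tested. Eef1g, at −0.89, lay below the lowest ribosomal protein gene (−0.77).

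**Figure D3:**
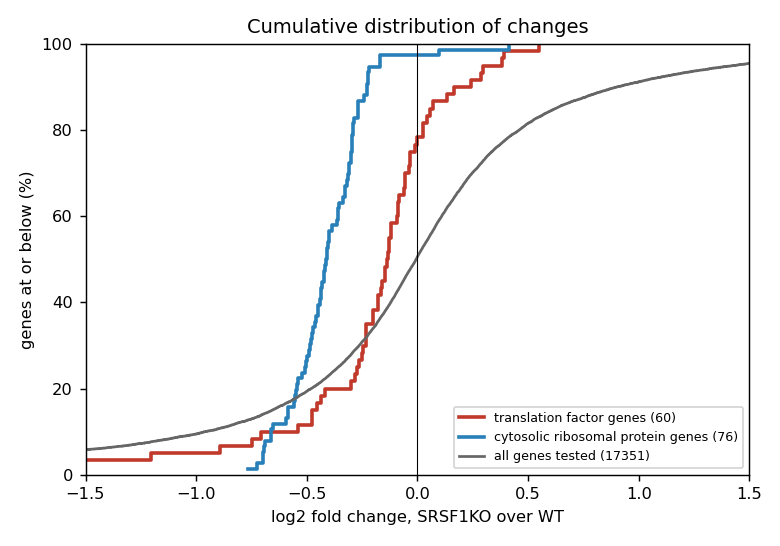
Cumulative share of genes (vertical axis, percent) at or below each log2 fold change of SRSF1KO over WT (horizontal axis, shown from −1.5 to 1.5) for 60 translation factor genes (red), 76 cytosolic ribosomal protein genes (blue) and all 17351 genes tested (grey). The red curve crosses 50% at −0.14, between the blue one at −0.41 and the grey one at −0.01.

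Many mRNAs of ribosomal proteins and of some translation factors begin with a C followed by a run of C and T, the terminal oligopyrimidine tract through which mTOR controls their translation. Of the 62 genes, 46 had at least 1 start site in the RefSeq promoter table (GRCm38.p6). Eef1g, Eef1d, Eif2b3 and Eif3i had none there, so the shares and medians that follow leave them out. The 30 bases around each start, 15 before it and 15 from it on, were searched on the transcribed strand for a C followed by at least 4 bases that are each C or T. Such a run stood in 18 of the 60 windows of translation factor genes (30.0%), against 59.1% of the windows of ribosomal protein genes and 36.4% of all 32851 windows. The share in translation factor genes was thus below that in the whole table, as it was when counted by gene (32.6% against 40.3%). Runs were counted anywhere in the window, bases before the start included, so a run need not be a terminal tract. The 14 tested genes with a run had a median log2 fold change of −0.17 and the 31 without one −0.09. The windows of a pair with a long run and of a pair of genes well below WT without one follow, as examples of both kinds, with the run in capitals. They lie at chr7:108934400-108934429, chr15:79075208-79075237, chr1:63176816-63176845 and chr1:131153192-131153221, all on the plus strand.
Eif3f: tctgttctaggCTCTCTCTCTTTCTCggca
Eif3l: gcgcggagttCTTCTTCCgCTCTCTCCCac
Eef1b2: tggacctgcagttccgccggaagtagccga
Eif2d: cgtcagttccgggccagcatcagggctagg

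Eif3f, with the longest run of the 4, had a log2 fold change of −0.04, and Eif3l −0.25. Eif2b5, which is not shown, had a longer run than Eif3f and a log2 fold change of 0.29. Eef1b2 and Eif2d, at −0.44 and −0.71, had no such run in the window. Annotated starts can lie some bases away from those used in thymocytes, so the absence of a run in a window says nothing about the mRNA's true first bases.

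The libraries were also compared within each pattern of sex-linked transcripts. Over the 56 genes averaging 5 CPM or more the median log2 difference was −0.05 between SRSF1KO replicate 2 and the WT libraries of the female pattern, with 34 below 0. Between SRSF1KO replicate 1 and WT replicate 2, of the male pattern, the median was −0.18, with 43 below 0. The same values over all genes were not computed within each pattern, so these have no background beside them. Against all WT libraries, the all-gene median was −0.03 without SRSF1KO replicate 1 and −0.03 without SRSF1KO replicate 2. Eif2d differed by −0.80 and −0.59, Eif2b3 by −0.86 and −0.63, Eif3i by −0.43 and −0.56, Eif5a by −0.35 and −0.53 and Eef1b2 by −0.32 and −0.61, in the female and male pattern. The median was thus further below 0 in the comparison that holds SRSF1KO replicate 1, the library with the raised erythroid markers, and the part of those markers in it was not tested. Each of these 5 genes was below 0 in both. Within groups, the median coefficient of variation over the 56 genes was 8.17% in SRSF1KO and 7.07% in WT. SRSF1KO held fewer libraries than WT, so these values are not directly comparable and do not show whether the spread was alike.

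**Figure D4:**
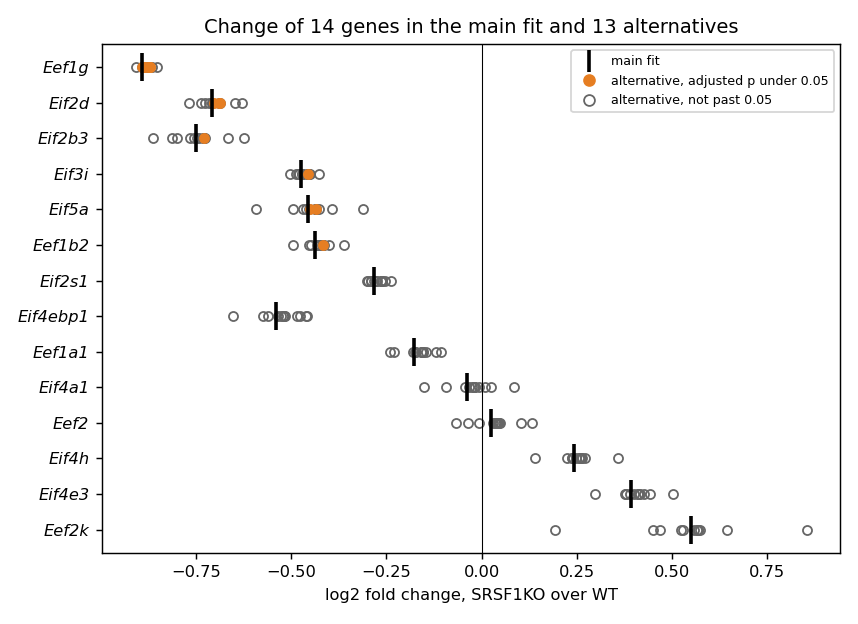
Log2 fold change of SRSF1KO over WT (horizontal axis) of 14 translation factor genes in the main edgeR fit (black bars) and in 13 alternatives (circles; filled orange where the adjusted p was under 0.05). Eef1g stays between −0.91 and −0.85 in all of them, Eif4a1 and Eef2 fall on both sides of 0, and Eef2k ranges from 0.19 to 0.85.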

How the data were processed

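Raw read counts per gene were deposited by the authors for 5 RNA-seq libraries, with no normalisation. Per the submitters' processing notes the tools were HTSeq 0.6.1, Bowtie2 2.1.0, Trim Galore, DESeq2 1.20.0, FastQC 0.11.5, HOMER 4.9.1 and cutadapt 1.17, with the build mm10 and no roles stated. Which aligner, annotation release and strand setting the counts rest on is not given in the sources used here. Of 53715 gene IDs, 53620 matched a symbol in a names table, version ignored (51464 with it). Biotypes and coordinates came from RefSeq for GRCm38.p6.

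Genes were tested with edgeR 4.0.16 in R 4.3.3 (TMM scaling, filterByExpr, robust glmQLFit and glmQLFTest, group as the only term), two-sided, with Benjamini-Hochberg adjustment over 17351 genes and a threshold of 0.05. Common biological variation was 0.494. Levels are CPM of the TMM-scaled library, and SEs come from the fold change and its F statistic. Levels of different genes were not compared, since transcript lengths were not used. No 2 libraries agreed within sampling noise (chi-square per degree of freedom 40.1 to 117). The scripts were tested on simulated data.

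Members and gene lists were chosen with earlier results of these data known. Named genes were every called member, up to 3 per role with the smallest p and at least 5 CPM, 12 set genes, called regulators or the 5 with the smallest p, and members under the filter. Alternatives were other scalings and filters, DESeq2 1.42.0, limma-voom (limma 3.58.1), the replicate number or the sex pattern as a term, and omission of each library.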

Additional observations from a re-analysis of the deposited data

How the results depend on the processing

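The calls were few and depended on the test. Genes called lower and higher over the whole table, 37 and 9 in the edgeR fit, were 7 and 3 with DESeq2's size factors, 346 and 198 with no low-count filter, 233 and 143 among genes averaging 5 CPM or more, 627 and 407 with DESeq2, 71 and 23 with limma-voom, and 5 and 0 with the sex pattern as a term. With 1 library left out they ranged from 0 to 67 and from 0 to 21. The 1 translation factor gene called lower became 3 without the filter (Eef1g, Eif2d and Eif5a), 2 among genes averaging 5 CPM or more (Eef1g and Eif2d) and 7 with DESeq2. It became 0 with the sex pattern as a term, with 9 lower and 3 higher at an unadjusted p under 0.05, and 0 or 1 with a library left out. No translation factor gene was called higher in any of these. With the replicate number as a block 0 genes were called in either direction, 0 translation factor genes among them, with 914 lower and 726 higher genes at an unadjusted p under 0.05 and 7 lower and 0 higher factors. Eef1g then stood at −0.86 (adjusted p = 0.314). Same-numbered libraries deviated from their group means with correlations of −0.02 and 0.03. With only 2 SRSF1KO libraries their deviations mirror each other, so these values cannot decide whether the numbers pair the samples. The median log2 fold change of the translation factor genes stayed negative under all 13 alternatives, between −0.16 and −0.10, while the median of all genes stayed between −0.03 and 0.02. When a library of SRSF1KO is left out, the other is assumed to vary like WT.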
